A study of Mus musculus with 5 samples.

Results

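The mRNAs described here encode the hnRNP proteins and the SR splicing factors of NIH/3T3, an established line of mouse embryo fibroblasts. They were chosen by gene name: the hnRNP genes and close relatives, the SR and SR-like genes, and the factors that recognise the branch point and the 3′ splice site, 37 genes in all. 35 of them are among the 18194 genes of the whole series that the arrays measured, and 108 of the 45101 probe sets belong to them. Hnrnpa3 had only 4 probe sets, all shared with Gm6793, and was left out, and Srsf7 was not analysed here. The cells carried pBSwitch and a mifepristone-inducible vector for myc-AUF1 p42, an isoform of the RNA-binding protein AUF1 with a myc tag. Complexes of RNA and protein were pulled from extracts with anti-myc beads (RNP-IP), and the RNA was hybridised to Affymetrix Mouse 430 2.0 arrays. 2 RNP-IPs were labelled induced (1 nM mifepristone for 24 h) and 2 uninduced, all from the same transfected cells, and 1 array held total RNA. Below they are called induced-label and uninduced-label RNP-IPs. The labels do not say whether the cells that gave the total RNA had been induced. The RNP-IPs of a condition were independent, so n is 2 for each label and 1 for total RNA. Myc-AUF1 came from a vector beside the AUF1 of the cells themselves, and the beads recognise only the tag.

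hnRNP proteins coat nascent transcripts and often keep splice sites from being used, whereas SR proteins bind exonic enhancers through their RNA recognition motifs and recruit the splicing machinery through their arginine and serine-rich domains. Many of these genes regulate their own mRNA and that of their relatives by alternative splicing, often through exons that expose the transcript to decay. AUF1 is itself hnRNP D and binds AU-rich elements in 3′ untranslated regions. A probe set reports only the stretch of transcript that its probes match, so probe sets of 1 gene can differ where its transcripts do.

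Values are log2 signals after robust multi-array averaging (RMA), so 1 unit is a 2-fold difference. A signal under log2 5 is called near background, since the array medians lay between 3.77 and 3.83. A difference counted as called when it reached 3-fold with a limma p, adjusted over all probe sets, under 0.5, which are the thresholds of the study's methods. This is a lenient rule, and at an adjusted p under 0.05 no member was called in any of the 4 comparisons. In induced-label RNP-IPs against the 3 control arrays (uninduced and total), 6 of 35 members had an unadjusted p under 0.05. That number was 10 for the induced-label RNP-IPs against uninduced-label RNP-IPs, 3 for induced against total RNA and 4 for uninduced against total RNA. Such p-values were frequent over the arrays as well. Of 8275 genes with a mean of log2 5 or more, 1987, 2139, 2329 and 1668 had one in these comparisons, in the same order. The 4 comparisons share arrays, and those with total RNA rest on 1 array that was taken to be as variable as an RNP-IP.

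The mRNA of the protein that was pulled down went against the direction its labels would lead one to look for. The brightest probe set of Hnrnpd, the AUF1 gene, read 6.72 and 7.39 in induced-label RNP-IPs, 11.35 and 11.85 in uninduced-label RNP-IPs, and 10.60 in total RNA. It was 18.6-fold lower in induced-label RNP-IPs than in the 3 controls (log2 difference -4.21, SE 0.46, limma adjusted p = 0.114). The other 2 Hnrnpd probe sets were near background in induced-label RNP-IPs, so that the log2 difference of -4.32 of one is a bound and the decrease may be larger. The other, with -1.97, was near background in uninduced RNP-IP 2 and total RNA as well. Whether these probes match the vector's transcript and whether labels were exchanged was not tested. Every direction below is between libraries as labelled. If the RNP-IP labels were exchanged, directions between induced-label and uninduced-label RNP-IPs would turn. Differences from total RNA would pass to the other label with their sign kept. The comparison with the 3 controls would then hold other arrays on each side, so its values would not simply turn. Of the fibroblast markers, 11 of 12 lay at log2 5 or more on all arrays, and Fap was below on all. Of the markers of other cell types, 5 of 6 epithelial, 3 of 4 blood, 4 of 4 endothelial and 3 of 5 neural genes lay below log2 5 on all arrays. Epcam, Cd3e, Rbfox3 and Map2 were the exceptions.

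The replicates of 1 condition were not alike at the 5′ ends of the array's control transcripts. The 5′ probe set of Gapdh read 8.18 and 4.24 in induced-label RNP-IPs, 3.65 and 7.81 in uninduced-label RNP-IPs, and 6.93 in total RNA. That of beta-actin read 11.35 and 7.17 in induced-label, 5.83 and 9.66 in uninduced-label and 8.50 in total RNA arrays. At the 3′ end Gapdh read 11.90 and 9.71 in induced-label, 9.70 and 12.11 in uninduced-label and 12.32 in total RNA arrays. Beta-actin there read 13.81 and 12.51 in induced-label, 12.53 and 13.25 in uninduced-label and 13.74 in total RNA arrays. Induced RNP-IP 2 and uninduced RNP-IP 1 were thus the low arrays in all these probe sets, and the gap was wider at the 5′ end for both genes. Its part in the results below was not tested, beyond the values given without 1 array.

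The splicing factor mRNAs were abundant in all 5 samples. Of the 35 members, 35 and 34 lay at log2 5 or more in induced-label RNP-IPs, 33 and 34 in uninduced-label RNP-IPs and 34 in total RNA. The median member read 10.91 and 10.49 in induced-label, 10.75 and 11.22 in uninduced-label and 10.32 in total RNA arrays. Since the whole extract was sampled, fewer cells carrying an mRNA, less of it per cell and less of it captured cannot be told apart in any value below.

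**Figure D1:**
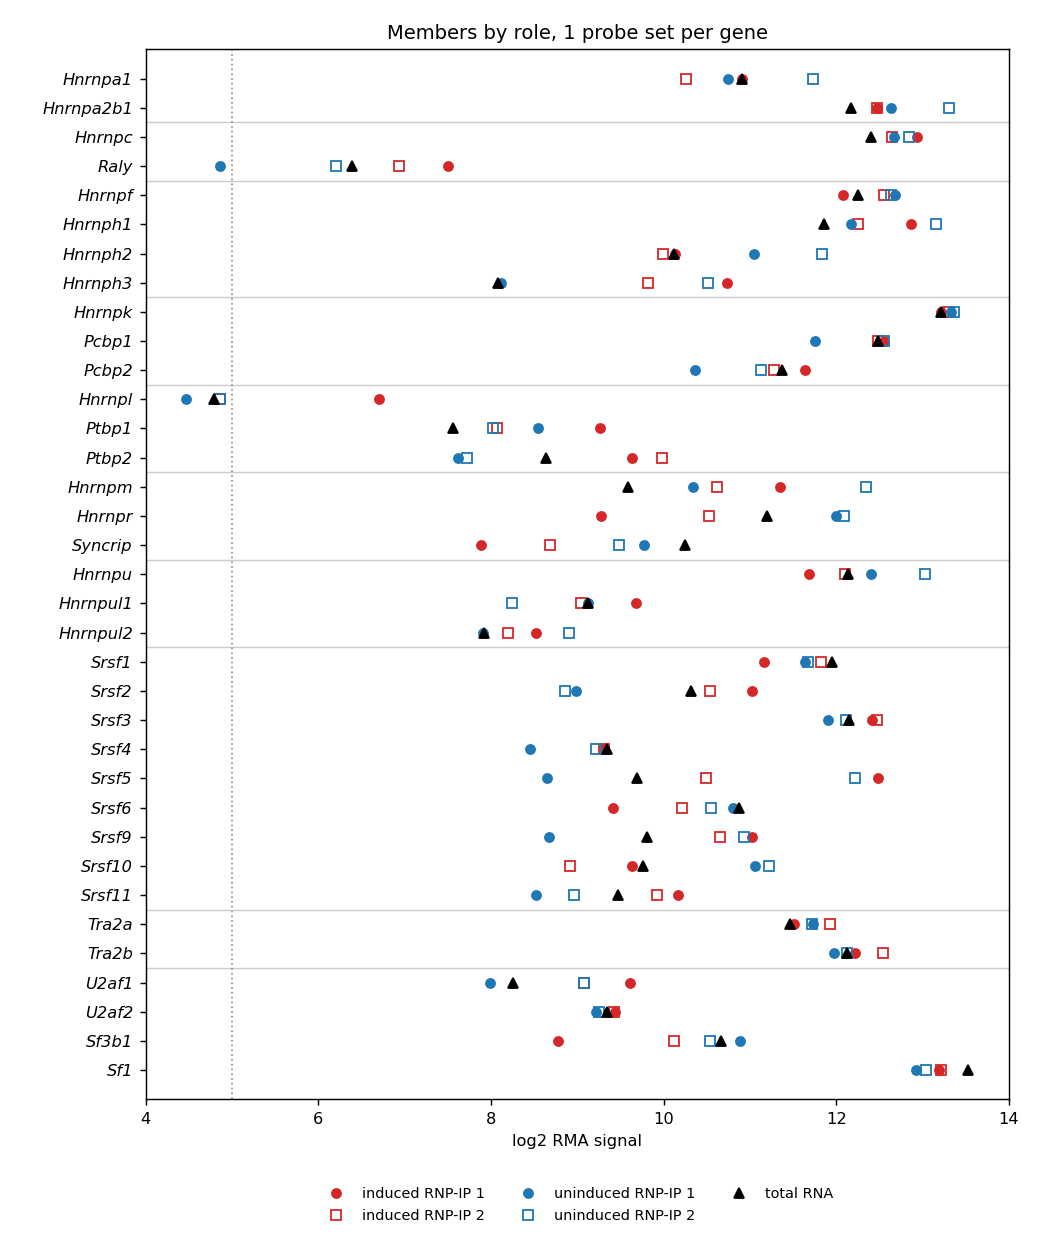
Log2 RMA signal (horizontal axis) of the probe set that represents each of 35 members (rows, grouped by role with grey lines between roles). Red marks are the 2 induced-label RNP-IPs, blue marks the 2 uninduced-label RNP-IPs and black triangles total RNA; the dotted line is log2 5. 23 of 35 members lie within 2-fold between induced-label RNP-IPs and the 3 controls (65.7%, beside 75.8% of genes with a mean of log2 5 or more). Ptbp2 and Srsf2 are among the members with both red marks right of both blue marks. Hnrnpr and Srsf10 are among those with both red marks left of both blue marks. Levels of different genes are not comparable.

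The members' median lay close to that of the rest of the array, but a smaller share of them lay within 2-fold. Against the 3 controls the members' median log2 difference was 0.17, beside 0.00 over all genes. Over the 8275 genes with a mean of log2 5 or more it was -0.13. 23 members were above 0 and 12 below. Within 2-fold lay 23 of 35 members (65.7%), beside 75.8% of those 8275 genes and 88.4% of all genes. Against uninduced-label RNP-IPs alone the members' share was again 65.7%, beside 75.3% and 88.1%. 1 member was called higher, Ptbp2, and 1 lower, Hnrnpr (2.86% of 35 in each direction). Over all genes 1.32% were called higher and 2.36% lower, and over the genes with a mean of log2 5 or more, a class that holds all 35 members, 2.62% and 5.12%. The members' counts are 1 in each direction and near the shares of that class. The class is set by a floor of log2 5 and does not match the members' signal, whose medians were 10.32 to 11.22. Against uninduced-label RNP-IPs alone, 2 members were called higher (Ptbp2 and Srsf2) and 2 lower (Hnrnpr and Srsf10), and the median was 0.20. The background there was 1.38% higher and 2.65% lower over all genes, and 2.77% and 5.66% over those with a mean of log2 5 or more.

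Few members stood apart from total RNA in RNP-IPs of either label. In induced-label RNP-IPs, 1 member was called lower, Syncrip, and 0 higher, with a median of 0.25. The background was 2.03% higher and 4.5% lower over all genes, and 4.15% and 9.27% over those with a mean of log2 5 or more. In uninduced-label RNP-IPs, 0 members were called in either direction, with a median of 0.04. There the background was 1.26% higher and 1.36% lower over all genes, and 2.65% and 2.55% over those with a mean of log2 5 or more. 30 of 35 members lay within 2-fold of total RNA in uninduced-label RNP-IPs (85.7%, beside 78.2% of genes with a mean of log2 5 or more). For induced-label RNP-IPs that was 24 of 35 (68.6%, beside 66.7%).

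Separation without regard to size was more frequent than the calls. Both induced-label RNP-IPs lay above all 3 controls for 8 members (Raly, Ptbp2, Srsf2, Srsf3, Srsf11, Tra2b, U2af1 and U2af2) and below all 3 for 6 (Hnrnpr, Syncrip, Hnrnpu, Srsf6, Srsf10 and Sf3b1). For 21 they overlapped. Among genes with a mean of log2 5 or more, 15.5% lay above and 24.2% below in this way. These counts are small and not far from the background. More members lay above than below, though, while the background leaned the other way, and this difference was not tested. It includes narrow separations. For U2af1, induced RNP-IP 2 and uninduced RNP-IP 2 both read 9.08 at this rounding. For U2af2, the lower induced-label array read 9.43 and total RNA 9.35.

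**Figure D2:**
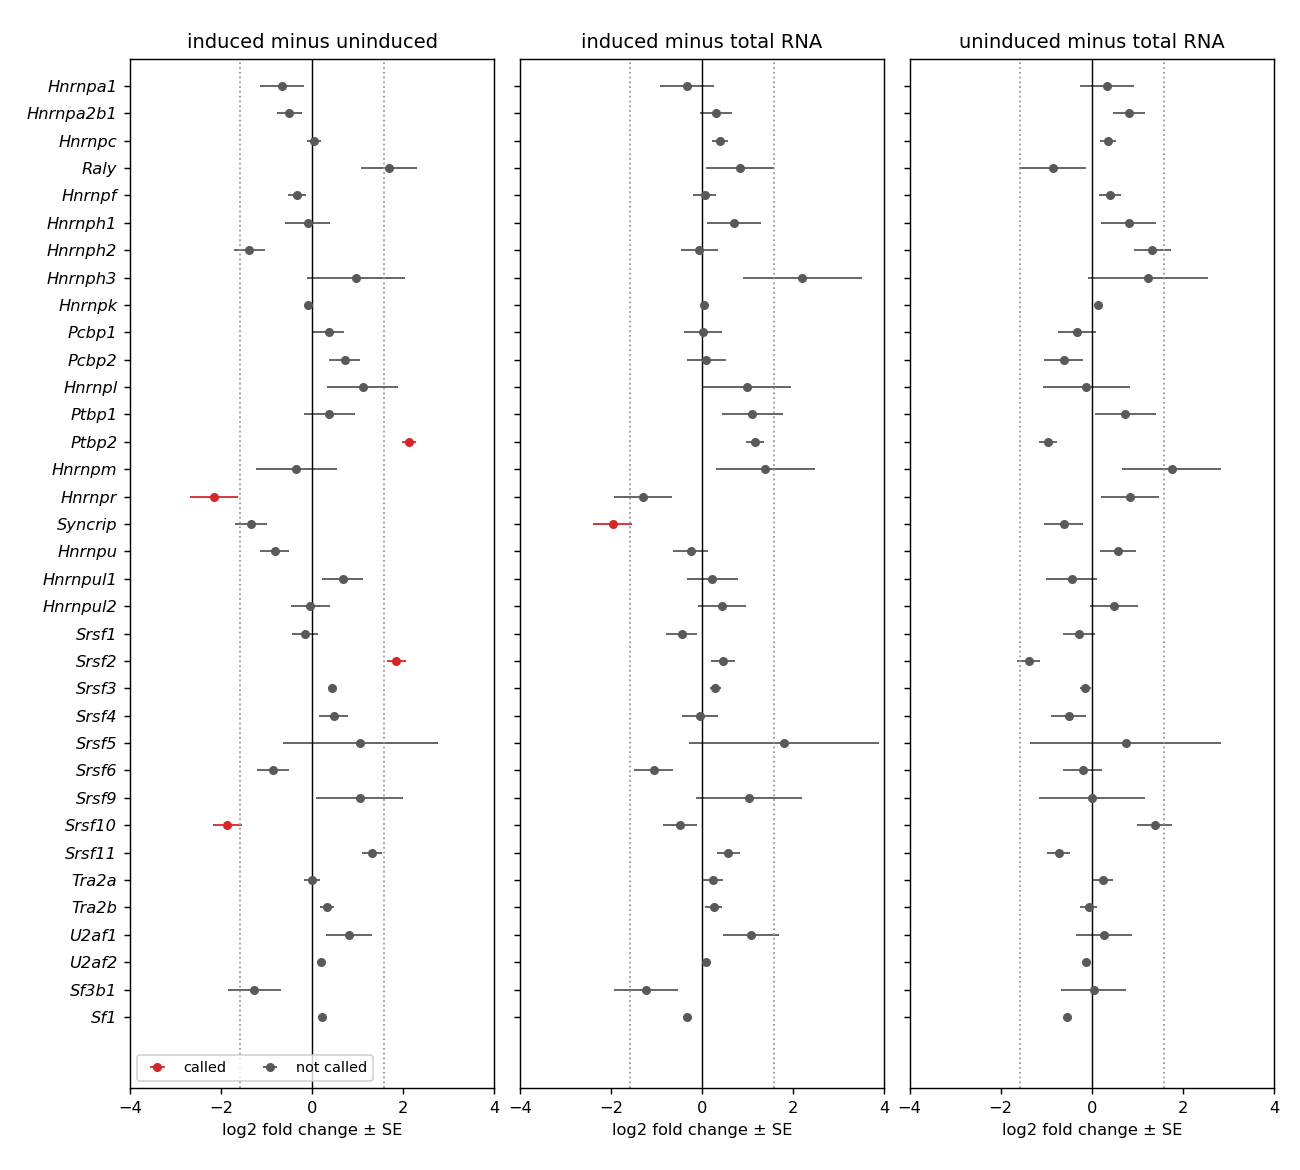
Log2 fold change with its standard error (horizontal axis) of 35 members (rows, in the order of roles) for the induced-label RNP-IPs against uninduced-label RNP-IPs (left), induced against total RNA (middle) and uninduced against total RNA (right). Dotted lines mark 3-fold and red points are called; 4 points are red on the left, 1 in the middle and 0 on the right.

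Ptbp2 was the member highest over its controls and Hnrnpr the lowest. Ptbp2 encodes the relative of polypyrimidine tract binding protein that is best known from neurons, where it replaces Ptbp1. Its representing probe set read 9.63 and 9.98 in induced-label RNP-IPs, 7.62 and 7.72 in uninduced-label RNP-IPs, and 8.64 in total RNA. Both induced-label arrays lay above the other 3, with total RNA in between. The difference was 4.39-fold against uninduced-label RNP-IPs (log2 2.13, SE 0.16, limma adjusted p = 0.138) and 3.50-fold against the 3 controls (1.81, SE 0.39, adjusted p = 0.249). The second call was lost without uninduced RNP-IP 2 (1.67, adjusted p = 0.560), while the first was kept with each of the 4 RNP-IPs left out in turn. The other Ptbp2 probe set lay nearer background, at 5.26 and 5.95 in induced-label, 5.11 and 4.11 in uninduced-label and 5.11 in total RNA arrays, and its log2 difference of 0.99 against uninduced-label RNP-IPs was not called.

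Ptbp1, which in most cells binds pyrimidine-rich stretches and represses exons, was not called on any of its probe sets. Its representing probe set read 9.26 and 8.07 in induced-label RNP-IPs, 8.55 and 8.02 in uninduced-label RNP-IPs, and 7.56 in total RNA, so the RNP-IPs of both labels overlapped. Hnrnpl, a binder of CA repeats, read 6.70 and 4.86 in induced-label, 4.47 and 4.86 in uninduced-label and 4.79 in total RNA arrays, so 1 induced-label array stood above the others and the rest were near background.

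Hnrnpr and Syncrip (hnRNP Q) are closely related proteins known for carrying and stabilising mRNA as well as for splicing, and both read lowest in induced-label RNP-IPs. Hnrnpr read 9.27 and 10.53 there, against 12.00 and 12.09 in uninduced-label RNP-IPs and 11.20 in total RNA. It was 3.64-fold lower than in the 3 controls (log2 -1.86, SE 0.52, limma adjusted p = 0.339) and lower by -2.15 than in uninduced-label RNP-IPs (SE 0.53, adjusted p = 0.348). The induced arrays differed by over 1 log2 unit between themselves, and the call against the 3 controls was lost without induced RNP-IP 1 (-1.24), uninduced RNP-IP 1 (-1.75) or uninduced RNP-IP 2 (-1.70). The call against uninduced-label RNP-IPs was lost without the same 3 arrays in turn (-1.52, -2.19 and -2.10).

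A second bright Hnrnpr probe set, 1427129_a_at, gave a tighter difference. It read 9.23 and 9.58 in induced-label RNP-IPs, 11.41 and 11.88 in uninduced-label RNP-IPs, and 10.79 in total RNA, a log2 difference of -1.96 against the 3 controls (SE 0.37, adjusted p = 0.216). That call was kept whichever of the 5 arrays was left out, with differences between -2.24 and -1.70. A further dim one, 1429232_at, read 2.86 and 3.37 in induced-label, 5.49 and 5.35 in uninduced-label and 3.37 in total RNA arrays. Only uninduced-label RNP-IPs lay above background, and they were called higher than total RNA (log2 2.05 or more, adjusted p = 0.247).

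Syncrip split in size between its probe sets but not in direction. The representing one read 7.89 and 8.69 in induced-label RNP-IPs, 9.77 and 9.49 in uninduced-label RNP-IPs, and 10.25 in total RNA. It was called lower against total RNA (log2 -1.96, SE 0.43, adjusted p = 0.260), a call lost without induced RNP-IP 1 (-1.56). Against the 3 controls its -1.54 fell just short of 3-fold, and without induced RNP-IP 2 it was -1.94 and called. Its probe set 1422768_at read 6.69 and 7.32 in induced-label, 10.09 and 10.26 in uninduced-label and 9.28 in total RNA arrays. Its groups lay far apart, 7.34-fold lower in induced-label RNP-IPs than in the 3 controls (log2 -2.88, SE 0.40, adjusted p = 0.144), and the call was kept whichever array was left out (-3.19 to -2.56). 1426402_at, at 8.69 and 9.03 in induced-label, 8.72 and 10.09 in uninduced-label and 9.15 in total RNA arrays, was not called. Hnrnpm, also in this role and a binder of GU-rich RNA, read 11.35 and 10.62 in induced-label, 10.34 and 12.35 in uninduced-label and 9.59 in total RNA arrays, with overlapping groups.

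Srsf10 was the member whose probe sets were called in opposite directions. It encodes an SR protein that acts as a splicing repressor when dephosphorylated. Its brightest probe set, 1423982_at, read 9.64 and 8.92 in induced-label RNP-IPs, 11.06 and 11.22 in uninduced-label RNP-IPs, and 9.76 in total RNA. It was lower by a log2 difference of -1.86 than in uninduced-label RNP-IPs (SE 0.31, limma adjusted p = 0.239), a call lost without induced RNP-IP 2 (-1.50), and near total RNA (-0.48, not called). Probe set 1418527_a_at read 10.52 and 10.41 in induced-label RNP-IPs, 7.90 and 8.48 in uninduced-label RNP-IPs, and 8.40 in total RNA. Both induced arrays stood clear of the 3 controls, 4.61-fold higher (log2 2.20, SE 0.21, adjusted p = 0.0990). This call was kept without each of the 5 arrays in turn (2.03 to 2.31). The remaining probe sets, 1418526_at and 1449121_at, had differences of 0.79 and -0.10 against the 3 controls and were not called. Averaged over all Srsf10 probe sets the difference was 0.37, so the direction for the gene depends on the probe set read.

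Srsf1, the founding SR protein and an activator of many exons, showed the widest gap between its probe sets. The representing probe set read 11.16 and 11.83 in induced-label RNP-IPs, 11.64 and 11.67 in uninduced-label RNP-IPs, and 11.95 in total RNA, with a log2 difference of -0.26 against the 3 controls. 1428099_a_at and 1453722_s_at, with -0.30 and 0.03, also showed no call. 1430982_at, with 0.73, was not called either and varied between replicates. It read 8.28 and 6.47 in induced-label, 4.48 and 7.79 in uninduced-label and 7.66 in total RNA arrays. Probe set 1428100_at read 3.61 and 3.94, near background, in induced-label RNP-IPs, against 7.46 and 7.05 in uninduced-label RNP-IPs and 7.98 in total RNA. Since the first 2 are at background the difference is a lower bound, at least 13.2-fold (log2 -3.72, SE 0.32, limma adjusted p = 0.0933). It was called against each control group alone too (-3.48 against uninduced and -4.20 against total RNA), and kept with each array left out (-3.94 to -3.48 against the 3 controls).

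Hnrnpa1, which binds exonic and intronic silencers and often opposes SR proteins, had the same form. Its representing probe set, 1455305_x_at, read 10.91 and 10.26 in induced-label, 10.75 and 11.73 in uninduced-label and 10.91 in total RNA arrays, and was not called. Probe set 1436549_a_at read 8.98 and 9.37 in induced-label RNP-IPs, 11.45 and 11.84 in uninduced-label RNP-IPs, and 11.16 in total RNA. It was 4.94-fold lower in induced-label RNP-IPs than in the 3 controls (log2 -2.31, SE 0.26, limma adjusted p = 0.116), a call kept without each array (-2.50 to -2.11). The _x_at set, by the array's naming, holds probes that can match other transcripts, and Hnrnpa1 has many processed copies in the genome, so its level is uncertain. Hnrnpa2b1, its closest relative here, read 12.47 and 12.47 in induced-label, 12.64 and 13.31 in uninduced-label and 12.17 in total RNA arrays and was not called. Of its other probe sets, 1433830_at was called higher in induced-label RNP-IPs than in total RNA (9.29 and 9.59 in induced-label RNP-IPs against 7.60 in total RNA, log2 1.84, adjusted p = 0.237), while 1433829_a_at and 1434047_x_at had differences of -0.84 and -0.59 there and were not called.

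Srsf2 (SC35), an SR protein that can both include and skip exons and that regulates its own transcript, was high in induced-label RNP-IPs on 3 of its 4 probe sets. The representing one, 1427504_s_at, read 11.02 and 10.54 there, 8.99 and 8.86 in uninduced-label RNP-IPs, and 10.32 in total RNA. It was 3.61-fold higher than in uninduced-label RNP-IPs (log2 1.85, SE 0.21, limma adjusted p = 0.176) but not called against the 3 controls (1.39, adjusted p = 0.522), and total RNA lay near the induced-label arrays. 1452439_s_at read 7.71 and 9.15 in induced-label, 6.42 and 5.96 in uninduced-label and 7.40 in total RNA arrays, a difference of 1.83 from the 3 controls (adjusted p = 0.474). That call was lost without induced RNP-IP 2 (1.11), uninduced RNP-IP 1 (1.75) or uninduced RNP-IP 2 (1.52). 1415807_s_at read 6.42 and 5.85 in induced-label, 4.75 and 4.33 in uninduced-label and 4.53 in total RNA arrays, the controls being near background (at least 1.60, adjusted p = 0.153, lost without induced RNP-IP 1 at 1.31 or uninduced RNP-IP 2 at 1.49, and with each array centred on its median at 1.58). These 3 carry the suffix _s_at, for probes shared between transcripts. The remaining set, 1427816_at, was flat, at 6.37 and 6.14 in induced-label, 6.06 and 6.03 in uninduced-label and 6.15 in total RNA arrays.

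**Figure D3:**
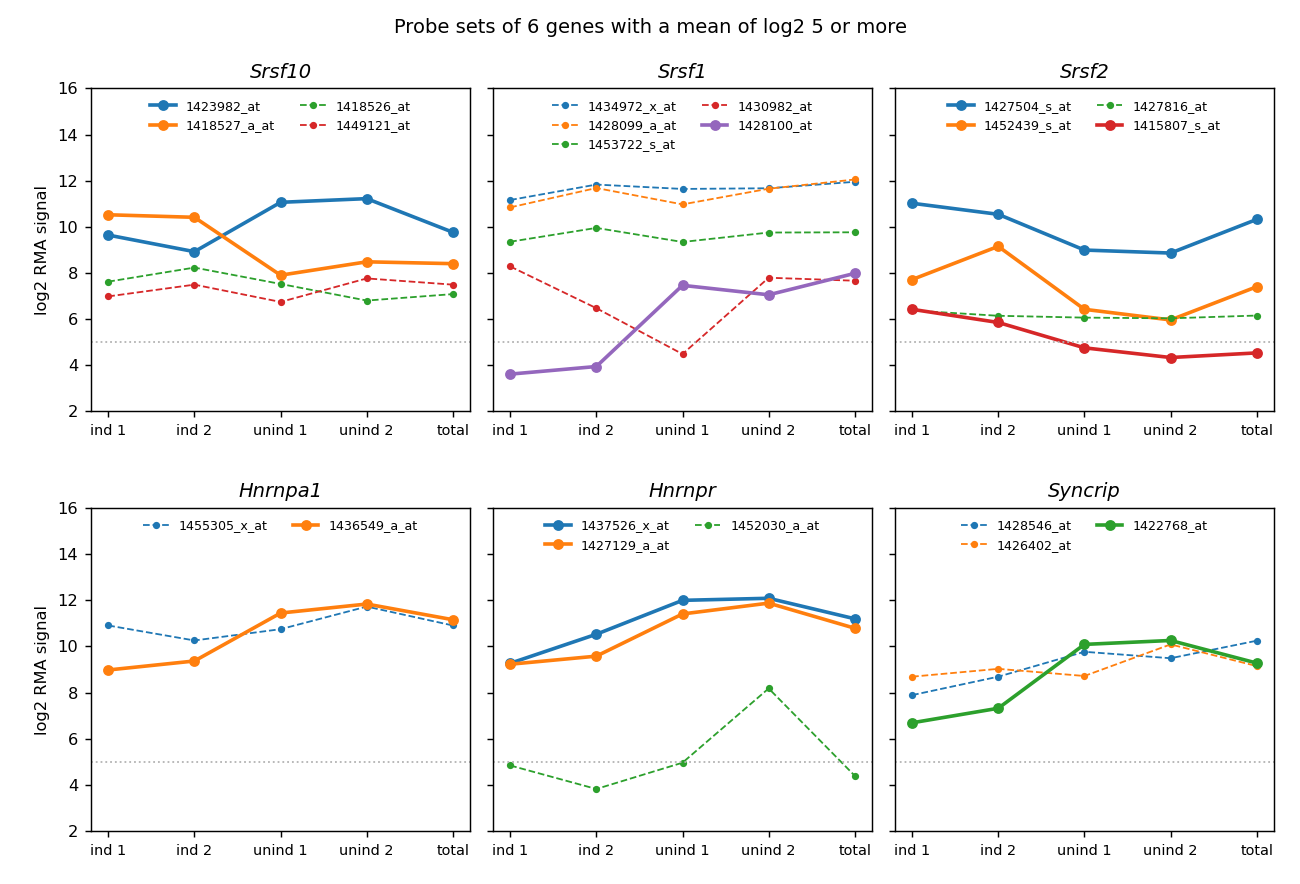
Log2 RMA signal (vertical axis) on the 5 arrays (horizontal axis: induced-label RNP-IPs 1 and 2, uninduced-label RNP-IPs 1 and 2, total RNA) for the probe sets of 6 genes with a mean of log2 5 or more. Thick solid lines are probe sets called against the 3 controls or against uninduced-label RNP-IPs, thin dashed lines are not called in either, and the dotted line is log2 5. The 2 called Srsf10 lines cross, and the called Srsf1 line is at 3.61 and 3.94 in the induced arrays while 3 other Srsf1 lines stay above 9.

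Over all 108 member probe sets, 4 were called higher and 5 lower in induced-label RNP-IPs against the 3 controls, which is 3.7% and 4.63%, beside 1.16% higher and 1.66% lower of all probe sets. The higher ones belonged to Ptbp2, Srsf2 (2) and Srsf10, the lower ones to Hnrnpa1, Hnrnpr (2), Syncrip and Srsf1. Against uninduced-label RNP-IPs alone 5 were higher and 9 lower (4.63% and 8.33%), beside 1.23% and 1.91% of all probe sets. Neither background is one of like signal. Of the 108, 83 had a mean of log2 5 or more, beside 13565 of all 45101. Called shares of probe sets of that signal are not given here. Over genes of that signal they were 2.62% and 5.12% against the 3 controls, and 2.77% and 5.66% against uninduced-label RNP-IPs. The list of lower ones against uninduced-label RNP-IPs also held a dim Hnrnpr set, the Srsf10 set above, and 1 set each of Hnrnpul2 and Srsf11.

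These last 2 were high in uninduced-label RNP-IPs and not in the other 3 arrays. Hnrnpul2 belongs to the family of Hnrnpu, a scaffold attachment protein that binds chromatin and RNA. Its probe set 1434551_at read 7.05 and 6.28 in induced-label RNP-IPs, 8.81 and 9.37 in uninduced-label RNP-IPs, and 7.15 in total RNA. Srsf11, an SR-related protein that meets U2AF at the 3′ splice site, read 5.06 and 5.18 in induced-label, 7.34 and 8.14 in uninduced-label and 4.98 in total RNA arrays on 1430077_at. In uninduced-label RNP-IPs that probe set was called at least 6.75-fold higher than in total RNA (near background there, log2 2.76, limma adjusted p = 0.268), and Hnrnpul2 by a log2 difference of 1.95 (adjusted p = 0.390). Against uninduced-label RNP-IPs, induced-label RNP-IPs were lower by -2.62 for Srsf11 (adjusted p = 0.194) and -2.43 for Hnrnpul2 (adjusted p = 0.237). The representing probe set of Srsf11 ran the other way, at 10.17 and 9.93 in induced-label, 8.52 and 8.96 in uninduced-label and 9.47 in total RNA arrays, with a difference of 1.31 from uninduced-label RNP-IPs that did not reach 3-fold.

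The remaining SR genes were not called on any probe set. Srsf3, the smallest SR protein, was nearly level on its representing probe set, at 12.41 and 12.47 in induced-label RNP-IPs, 11.91 and 12.11 in uninduced-label RNP-IPs, and 12.15 in total RNA. Its probe set 1416152_a_at lay below all 3 controls instead, at 8.14 and 7.99 in induced-label, 9.04 and 9.08 in uninduced-label and 9.32 in total RNA arrays, a difference of -1.08 (limma adjusted p = 0.113) that did not reach 3-fold. Directions thus differed between probe sets of Srsf3 without a call. Srsf4, a regulator of alternative exons, read 9.31 and 9.31 in induced-label, 8.45 and 9.22 in uninduced-label and 9.34 in total RNA arrays. Srsf9, of like function, read 11.02 and 10.66 in induced-label, 8.67 and 10.93 in uninduced-label and 9.81 in total RNA arrays. Uninduced RNP-IP 1 was lowest in both genes. The RNP-IPs of both labels overlapped for Srsf9, and for Srsf4 the induced-label arrays lay above the uninduced-label ones but not above total RNA. Srsf6, likewise a regulator of alternative exons, read 9.42 and 10.21 in induced-label, 10.80 and 10.55 in uninduced-label and 10.88 in total RNA arrays, with both induced-label arrays below the others and a difference of -0.92 from the 3 controls. Its probe set 1448454_at ran the other way, at 9.44 and 9.33 in induced-label, 8.63 and 8.94 in uninduced-label and 9.01 in total RNA arrays (0.53).

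Srsf5 was the member least alike between replicates. It read 12.49 and 10.49 in induced-label RNP-IPs, 8.65 and 12.22 in uninduced-label RNP-IPs, and 9.69 in total RNA, so the RNP-IPs of both labels overlapped and its difference of 1.06 had an SE of 1.71. Tra2a and Tra2b, SR-like proteins that bind GAA-rich enhancers, were steady on their representing probe sets. Tra2a read 11.51 and 11.93 in induced-label, 11.73 and 11.72 in uninduced-label and 11.47 in total RNA arrays. Tra2b read 12.22 and 12.54 in induced-label, 11.97 and 12.12 in uninduced-label and 12.12 in total RNA arrays. A second Tra2b probe set, 1419543_a_at, separated the groups, at 11.39 and 11.02 in induced-label, 9.46 and 10.21 in uninduced-label and 9.63 in total RNA arrays, but its difference of 1.44 from the 3 controls was under 3-fold.

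Among the other hnRNP genes none was called on its representing probe set. Hnrnpc, which binds uridine tracts, read 12.94 and 12.65 in induced-label, 12.67 and 12.84 in uninduced-label and 12.40 in total RNA arrays. Its relative Raly read 7.50 and 6.94 in induced-label RNP-IPs, above the 4.86 and 6.20 of uninduced-label RNP-IPs and the 6.39 of total RNA. That difference was the second highest among members (1.40 against the 3 controls), and against uninduced-label RNP-IPs, which lay over 1 log2 unit apart, its adjusted p of 0.506 missed the threshold.

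The hnRNP F/H genes encode proteins that bind runs of G. Hnrnpf read 12.08 and 12.56 in induced-label, 12.68 and 12.63 in uninduced-label and 12.25 in total RNA arrays. Hnrnph1 read 12.87 and 12.25 in induced-label, 12.17 and 13.16 in uninduced-label and 11.86 in total RNA arrays, with overlapping RNP-IPs, whereas for Hnrnpf both induced-label arrays lay below both uninduced-label arrays. Hnrnph2 read 10.13 and 9.99 in induced-label, 11.05 and 11.84 in uninduced-label and 10.12 in total RNA arrays, so total RNA stood with the induced-label arrays, and its difference of -1.38 from uninduced-label RNP-IPs did not reach 3-fold. Hnrnph3 read 10.73 and 9.82 in induced-label, 8.12 and 10.51 in uninduced-label and 8.08 in total RNA arrays, and its 2.20 over total RNA, the largest such difference among members, was not called. For Hnrnph3 the uninduced-label arrays differed by more than 2 log2 units.

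The KH domain proteins that bind poly(C), Hnrnpk, Pcbp1 and Pcbp2, differed little between the arrays on their representing probe sets. Hnrnpk, which also acts in transcription and translation, read 13.22 and 13.29 in induced-label, 13.33 and 13.36 in uninduced-label and 13.21 in total RNA arrays. Pcbp1 read 12.55 and 12.48 in induced-label, 11.75 and 12.56 in uninduced-label and 12.48 in total RNA arrays. Pcbp2 read 11.64 and 11.28 in induced-label, 10.36 and 11.13 in uninduced-label and 11.37 in total RNA arrays, so 4 of 5 arrays were close together in these last 2 genes and uninduced RNP-IP 1 was the low one. A dimmer Pcbp2 probe set, 1435881_at, was called lower in induced-label RNP-IPs (7.16 and 7.33) than in total RNA (9.17, log2 -1.92, SE 0.10, limma adjusted p = 0.103), with uninduced-label RNP-IPs in between at 8.50 and 8.50.

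Hnrnpu read 11.69 and 12.10 in induced-label, 12.40 and 13.03 in uninduced-label and 12.14 in total RNA arrays. Its difference from the 3 controls was -0.63, but 0.53 on its probe set 1423051_at, with overlapping groups. That set read 12.47 and 12.12 in induced-label, 11.62 and 12.23 in uninduced-label and 11.44 in total RNA arrays. Hnrnpul1, a relative of Hnrnpu, read 9.68 and 9.04 in induced-label, 9.13 and 8.25 in uninduced-label and 9.13 in total RNA arrays. The representing set of Hnrnpul2 read 8.52 and 8.20 in induced-label, 7.91 and 8.90 in uninduced-label and 7.92 in total RNA arrays. On these 3 representing probe sets all 4 comparisons stayed under 2-fold.

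The factors that mark the 3′ end of the intron showed no call. Sf1 binds the branch point first, U2af2 the pyrimidine tract and U2af1 the AG at the splice site, and Sf3b1, part of the U2 snRNP, takes the place of Sf1. U2af2 read 9.44 and 9.43 in induced-label RNP-IPs, 9.22 and 9.25 in uninduced-label RNP-IPs, and 9.35 in total RNA. U2af1 read 9.61 and 9.08 in induced-label, 7.99 and 9.08 in uninduced-label and 8.26 in total RNA arrays, the nearest RNP-IPs being equal at this rounding. Sf1 read 13.19 and 13.21 in induced-label, 12.93 and 13.04 in uninduced-label and 13.53 in total RNA arrays, highest in total RNA. Sf3b1 had the lowest difference of the 4, with 8.78 and 10.12 in induced-label RNP-IPs, 10.89 and 10.54 in uninduced-label RNP-IPs and 10.67 in total RNA. Its difference of -1.25 from the 3 controls was smaller than the gap between the 2 induced-label arrays.

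The replicate difference seen in the Gapdh and beta-actin controls also appeared in some splicing factor probe sets. Of the 83 with a mean of log2 5 or more, 9 (10.8%) were higher by over 1 log2 unit in induced RNP-IP 1 than 2 and in uninduced RNP-IP 2 than 1, beside 3.94% of the 13565 probe sets of that signal. The opposite pattern was found in 1 (1.2%, beside 0.863%). They comprised 2 of Hnrnpf and 1 each of Hnrnpk, Ptbp1, Hnrnpr, Hnrnpu, Srsf1, Srsf5 and Sf3b1. Hnrnpf 1423382_a_at read 10.94 and 9.25 in induced-label, 6.05 and 9.87 in uninduced-label and 7.99 in total RNA arrays. Hnrnpk 1448176_a_at read 11.94 and 10.58 in induced-label, 9.58 and 11.92 in uninduced-label and 9.95 in total RNA arrays. Both genes had a representing probe set that was level over the arrays. None of the 9 was called against either set of controls.

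**Figure D4:**
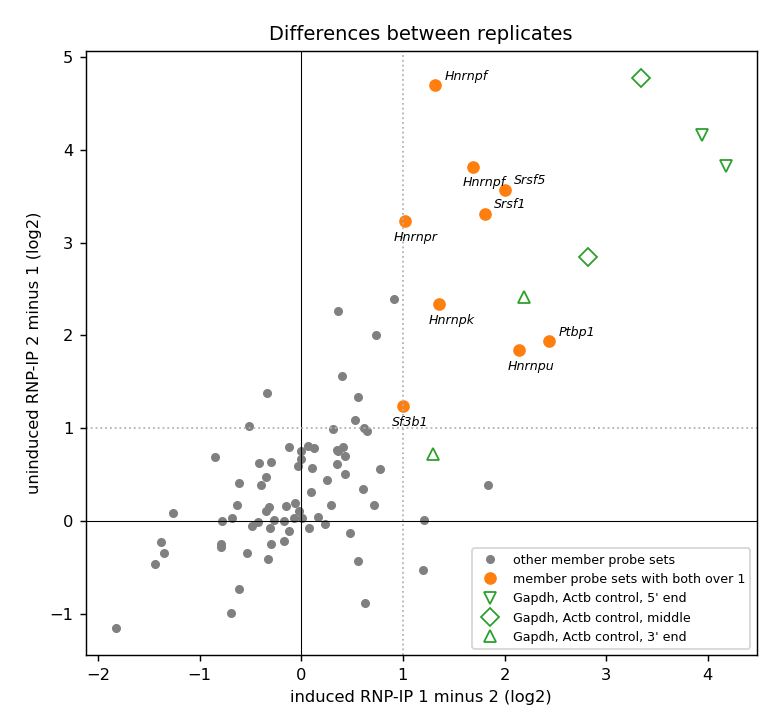
Signal of induced RNP-IP 1 minus induced RNP-IP 2 (horizontal axis, log2) against that of uninduced RNP-IP 2 minus uninduced RNP-IP 1 (vertical axis, log2) for member probe sets with a mean of log2 5 or more; dotted lines mark 1. The 9 orange points are over 1 on both axes, and green open marks are the Gapdh and beta-actin control probe sets, which lie farther out at the 5′ end (down triangles) and middle (diamonds) than at the 3′ end (up triangles).

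Other parts of the splicing machinery had few calls, here read from 1 probe set per gene, and their shares can be set beside the 1.32% higher and 2.36% lower of all genes given above. Of 18 measured snRNP core proteins, 0 were called in either direction against the 3 controls (median log2 difference 0.16). Of 21 tri-snRNP proteins 1 was higher (4.76%), Lsm2 of the U6 ring, at 5.91 and 5.61 in induced-label, 3.57 and 4.29 in uninduced-label and 3.88 in total RNA arrays (at least 1.85, adjusted p = 0.143; median of the list -0.15). Of 9 genes on a list of SR protein kinases, which also holds Topors, a ubiquitin and SUMO ligase, 0 were called against the 3 controls (median -0.45). Clk1 was called lower in induced-label (8.67 and 8.56) than in uninduced-label RNP-IPs (10.18 and 10.36, log2 -1.66, adjusted p = 0.126). Srpk1 was called lower in induced-label RNP-IPs (7.05 and 7.21) than in total RNA (9.72, -2.59, adjusted p = 0.0912), and so it was in uninduced-label RNP-IPs (7.96 and 8.02, -1.73, adjusted p = 0.163).

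Of 38 SR-related and other regulators, 2 were higher (5.26%) and 3 lower (7.89%) against the 3 controls, with a median of 0.00. These shares are above those of all genes, and above the 2.62% and 5.12% of genes with a mean of log2 5 or more, and rest on 5 genes. Rbmx (hnRNP G) read 10.10 and 10.30 in induced-label RNP-IPs, 8.58 and 8.49 in uninduced-label RNP-IPs, and 8.73 in total RNA (log2 1.59, limma adjusted p = 0.0774), and Rbm25 was higher by 1.84. Son, a large scaffold protein of nuclear speckles, read 7.25 and 7.92 in induced-label, 9.63 and 9.49 in uninduced-label and 10.15 in total RNA arrays (-2.17, adjusted p = 0.153), and Rbm39 and Scaf8 were lower by differences of -1.65 and -1.64. Of 16 exon junction and mRNA export genes, 1 was lower (6.25%), Thoc2 of the THO complex (-1.68), and the median was -0.23.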

How the data were processed

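Deposited values were log2 signals that the authors computed by RMA, per the labels' processing notes, for 45101 probe sets on 5 arrays after 2 rounds of labelling. The sources used here give no RMA version. Probe sets were named from the platform annotation, brought up to date through gene identifiers: 34958 had 1 gene, 932 several and 9211 none. The probe set with the highest mean over the 5 arrays represented its gene. Arrays give no read depth, so their number (2, 2 and 1) limits the precision.

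Fits over all probe sets used lmFit and eBayes of limma (version 3.58.1, under R 4.3.3) with Benjamini-Hochberg adjustment. The comparison with 3 controls used 2 groups and the others 3 groups (3 and 2 residual degrees of freedom). The fits were tested on simulated data. Quantile normalisation by RMA makes the arrays' distributions alike, so all differences are relative within an array.

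Named were members called in any comparison, the 3 highest and 3 lowest against the 3 controls, and members with other called probe sets. Remaining members were named by role. The members, roles and lists were chosen with earlier results of these data known. Alternatives were other normalisations, filters, probe set rules, thresholds, a variance trend, a replicate block and each array left out. Sequences are not shown, and the files held no columns of other samples.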

Additional observations from a re-analysis of the deposited data

How the results depend on the processing

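The median difference of the members changed by less than the median standard error of their differences under every alternative that could change it. Their counts of calls were small and did depend on the choices. At an adjusted p under 0.05, 0 of all genes were called in each comparison. For the other alternatives no share over all genes is given here, so the members' counts under them have no background beside them. Against the 3 controls, where 1 member was higher and 1 lower, choosing for each gene the probe set with the largest difference gave 3 higher and 4 lower, the mean of a gene's probe sets 0 and 0, an adjusted p under 0.05 0 and 0, and 1.5-fold 2 and 4. With each array left out the counts ran from 1 to 2 higher and from 0 to 3 lower. Against uninduced-label RNP-IPs, with 2 higher and 2 lower, the largest difference gave 6 lower, the mean 0 higher and 1 lower, an adjusted p under 0.05 0 and 0, 1.5-fold 4 lower, and arrays left out 2 to 5 higher and 1 to 3 lower. For induced-label RNP-IPs against total RNA, with 0 higher and 1 lower, the largest difference gave 3 higher and 4 lower, the mean and an adjusted p under 0.05 0 lower, only the brightest probe sets 1 higher, 1.5-fold 1 higher and 2 lower, and arrays left out 0 to 2 higher and 0 to 3 lower. For uninduced-label RNP-IPs against total RNA, with 0 and 0, the brightest probe sets gave 1 higher, the largest difference 2 higher, 1.5-fold 2 higher and 2 lower, and arrays left out 0 to 3 higher.

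Srsf10 reversed with the probe set of the largest difference (2.20 against the 3 controls, 2.27 against uninduced-label RNP-IPs) and with the mean of its probe sets (0.37 and 0.29). By construction, those settings read other probe sets. Without _x_at and _s_at probe sets, an alternative added after seeing the data, there were 2 lower against the 3 controls, 1 higher against uninduced-label RNP-IPs and 2 lower against total RNA, and Srsf2 was no longer called against uninduced-label RNP-IPs (0.21).

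Samples that share a replicate number were not shown to pair: their deviations from the group means correlated at r = -0.50 over 45101 probe sets. With a replicate block 0 members were called lower against uninduced-label RNP-IPs, with Hnrnpr at -2.15 (adjusted p = 0.558) and Srsf10 at -1.86 (adjusted p = 0.539). With the numbers crossed, added after seeing the data, 3 were called higher and 2 lower. The cause of the changes under other settings was not tested.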
